A study of Mus musculus with 12 samples.

Results

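The mitochondrial ribosome is assembled from ribosomal RNAs of the mitochondrial genome and from proteins that are encoded in the nucleus, made in the cytosol and imported. It translates the few mitochondrial mRNAs, all of which encode subunits of the respiratory chain and ATP synthase. Some of its proteins descend from the bacterial ribosome and others occur only in mitochondria, and in adipose tissue its output is needed most where mitochondria are dense, as in brown adipocytes. The genes examined here are those whose symbol begins with Mrpl (large subunit) or Mrps (small subunit) followed by a number and at most 1 letter. This naming rule used no measured value. It found 76 of 37750 rows of the deposited table, 70 of them with a single gene name (44 Mrpl and 26 Mrps) and 6 that join the member with another gene. All 70 single-name rows passed the filter for testing, 1 FPKM (fragments scaled to transcript length and library size) in at least 4 of 12 libraries. Each of the 70 was at or above 1 FPKM in every library, apart from Mrpl23 in LPS 6.

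RNA was measured in 8 libraries of liposarcoma (LPS, tumours with a labelled age of 9 to 12 months) and 4 libraries of white adipose tissue (WAT, labelled age 3 weeks). How long a tumour had existed is not given. All 12 came from Ad/NICD mice on a 129 x C57BL/6 background, which carry the intracellular domain of Notch1, the active part of that receptor, in adipocytes. Both groups carry the transgene, so no library here shows fat without it. The labels name no Cre line or promoter. Age and tissue differ together between the groups and cannot be told apart.

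The labelled tissues were checked against markers. Summed white adipocyte markers (Adipoq, Plin1, Cidec, Lep, Retn, Cfd and Fabp4) ran from 67.7 to 2034 FPKM in LPS and from 10258 to 12509 FPKM in WAT. All 7 were lower in LPS, and no marker was at 0 in every LPS library. For these and the next markers, the shares of all tested rows were 27% called lower and 18.9% called higher. Brown adipocyte markers, of a fat cell rich in mitochondria, summed to 1.01 to 16.3 FPKM in LPS and 1515 to 2127 FPKM in WAT, and all 5 tested were lower in LPS. Ucp1, a marker of this list, lay at 0.0986 to 0.299 FPKM in LPS and 376 to 801 FPKM in the WAT libraries. Of 6 skeletal muscle markers, 1 was lower and 5 were not called, and their sum was 0.320 to 320 FPKM in LPS. In WAT it was 1061 FPKM in WAT 1 and 959 FPKM in WAT 4, against 3.54 FPKM in WAT 2 and 137 FPKM in WAT 3. All 4 pericyte markers were higher in LPS and summed to 3134 to 6401 FPKM in LPS and 123 to 141 FPKM in WAT, and all 3 tested cycling cell markers were higher, at 25.9 to 141 FPKM in LPS and 10.8 to 34.6 FPKM in WAT. Of 5 macrophage markers, C1qa and C1qb were higher (sum 160 to 596 FPKM in LPS, 136 to 154 FPKM in WAT). Lower in LPS were 5 of 6 T and B cell markers (1.91 to 51.7 FPKM in LPS, 64.1 to 121 FPKM in WAT) and 3 of 4 endothelial markers (44.1 to 119 FPKM in LPS, 135 to 169 FPKM in WAT). In bulk tissue, fewer cells of a type and less RNA per cell cannot be told apart. The part of these cell types in the results below was not tested. LPS 5 read low as deposited, with a median ratio of 0.814 to the geometric mean of the libraries, against 0.991 to 1.06 in the others.

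The promoters of 5 members are shown because they stand at the ends of the range of differences or because they face another gene with a role in mitochondrial translation. They are RefSeq windows on GRCm38.p6, from 250 bases before to 50 bases after the annotated start, read 5′ to 3′ on the gene's strand. Capitals mark the motifs searched. Mrpl34 had the lowest log2 difference (chr8:71464676-71464975, plus strand) and Mrpl52 was the only member called higher (chr14:54426659-54426958, plus strand). Mrps12 starts back to back with a mitochondrial tRNA synthetase gene (chr7:28741772-28742071, minus strand). Mrpl46 (chr7:78783040-78783339, minus strand) and Mrps11 (chr7:78782881-78783180, plus strand) start from overlapping windows on opposite strands.
Mrpl34: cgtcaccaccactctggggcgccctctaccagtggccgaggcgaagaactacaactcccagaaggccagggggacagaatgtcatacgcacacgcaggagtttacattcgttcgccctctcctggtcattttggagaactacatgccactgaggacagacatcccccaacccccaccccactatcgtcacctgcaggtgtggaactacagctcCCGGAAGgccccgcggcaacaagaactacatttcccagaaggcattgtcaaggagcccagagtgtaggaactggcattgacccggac
Mrpl52: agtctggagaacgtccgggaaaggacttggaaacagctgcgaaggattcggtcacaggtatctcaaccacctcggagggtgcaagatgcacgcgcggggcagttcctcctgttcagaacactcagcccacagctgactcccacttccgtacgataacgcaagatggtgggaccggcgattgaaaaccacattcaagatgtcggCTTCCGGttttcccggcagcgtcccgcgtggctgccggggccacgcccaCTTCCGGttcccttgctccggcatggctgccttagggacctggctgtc
Mrps12: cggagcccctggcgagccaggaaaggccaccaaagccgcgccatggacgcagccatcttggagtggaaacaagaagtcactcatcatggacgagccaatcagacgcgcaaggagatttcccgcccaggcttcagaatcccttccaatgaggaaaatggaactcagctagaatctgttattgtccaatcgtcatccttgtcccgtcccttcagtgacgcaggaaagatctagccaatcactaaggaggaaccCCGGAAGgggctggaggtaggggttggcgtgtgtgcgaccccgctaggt
Mrpl46: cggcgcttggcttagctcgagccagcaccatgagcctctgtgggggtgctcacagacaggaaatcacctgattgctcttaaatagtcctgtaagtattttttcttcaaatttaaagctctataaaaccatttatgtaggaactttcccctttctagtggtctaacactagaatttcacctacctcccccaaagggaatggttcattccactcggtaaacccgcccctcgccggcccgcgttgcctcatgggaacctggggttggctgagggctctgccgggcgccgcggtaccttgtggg
Mrps11: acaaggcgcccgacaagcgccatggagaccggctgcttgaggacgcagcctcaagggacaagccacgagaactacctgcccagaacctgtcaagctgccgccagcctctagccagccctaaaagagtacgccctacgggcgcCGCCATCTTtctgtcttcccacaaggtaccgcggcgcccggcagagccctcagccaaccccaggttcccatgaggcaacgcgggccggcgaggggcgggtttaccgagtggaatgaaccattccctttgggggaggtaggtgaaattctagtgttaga

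Of the 70 single-name members, 61 were lower in LPS than in WAT, 1 was higher and 8 were not called (limma, Benjamini-Hochberg adjusted p below 0.05). Among all 14821 rows tested, 27% were called lower and 18.9% higher. The median log2 difference of the members, LPS minus WAT on the scale log2(FPKM + 1), was -0.84, and that of all rows was -0.05. The median member stood in LPS at 54.1% of its WAT mean. In 52 members every LPS library lay below every WAT library, and in 1 every LPS library lay above, against 20.9% and 11.8% of all rows. A drop of at least 1 on the log2 scale was called in 23 members, and in 15.6% of all rows. Without WAT 1 and WAT 4, the libraries with high muscle markers, 46 members were lower and 0 higher, beside 15.2% of rows lower, and the member median was -0.81.

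**Figure D1:**
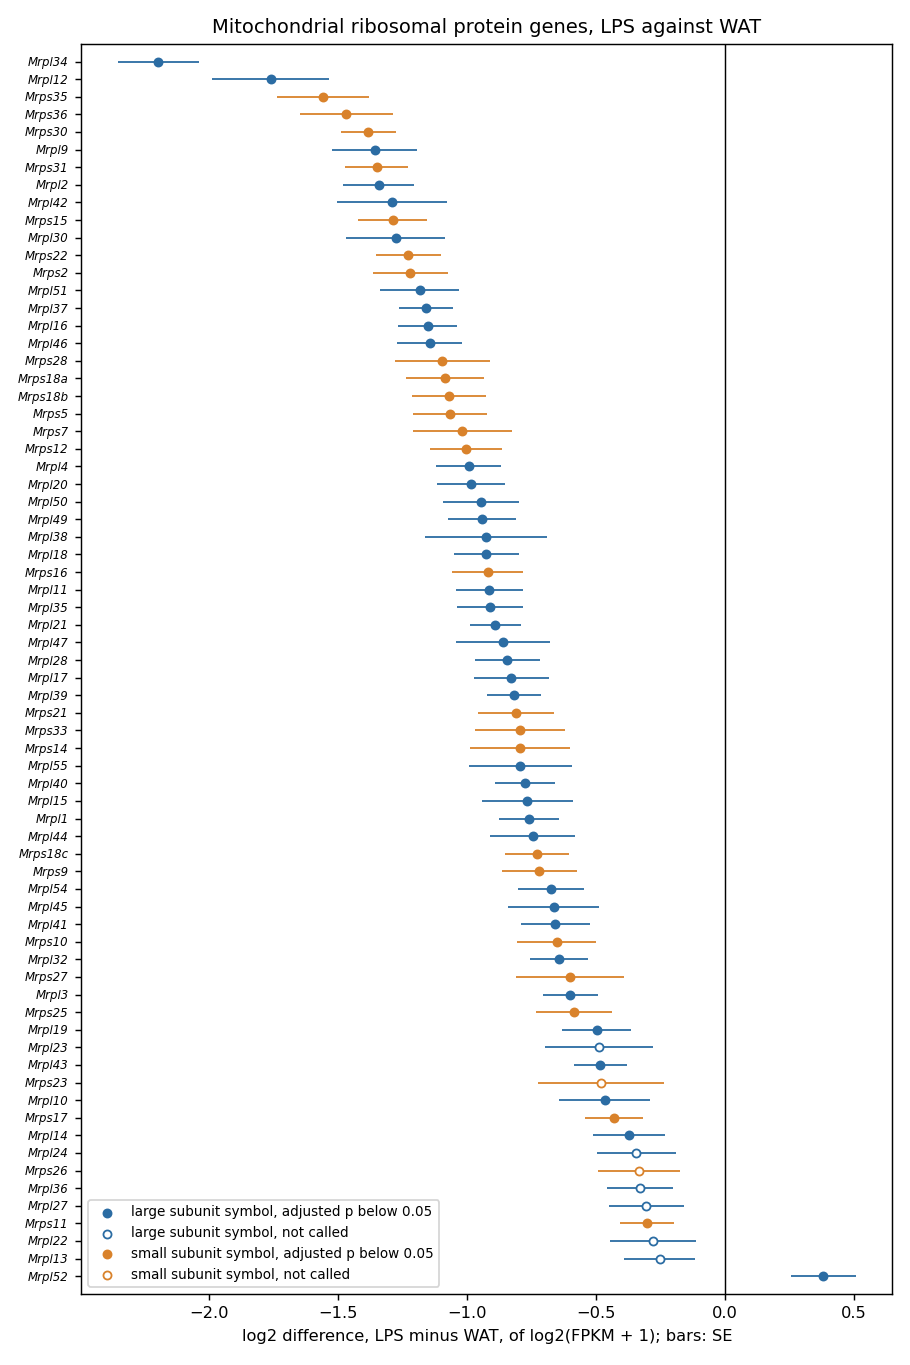
Log2 difference between LPS and WAT (horizontal axis, LPS minus WAT of log2(FPKM + 1), bars are SE) for the 70 single-name members, ordered from lowest at the top to highest at the bottom. Filled points passed adjusted p below 0.05; Mrpl34 at -2.20 is the lowest, and Mrpl52 at 0.38 is the only point right of 0.

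The decrease was graded, with member quartiles at -1.09 and -0.61. Mrpl34, a small protein of the large subunit with a bacterial counterpart, had the lowest value (chromosome 8, 71464959 to 71465747, plus strand, GENCODE M21). It lay at 16.5, 17.6 and 20.6 FPKM in LPS (lowest, median, highest), against 69.5, 67.0, 89.6 and 130 FPKM in WAT 1 to WAT 4. The tumours were nearly level, the WAT libraries spread widely with WAT 4 highest, and the groups did not overlap. Its means were 18.0 ± 1.52 FPKM in LPS and 89.0 ± 29.2 FPKM in WAT (SD, 8 and 4 libraries). The log2 difference of -2.20 ± 0.16 (SE) had a limma adjusted p of 1.46e-07. Mrpl34 ranked at 33 of the 70 by mean level in LPS and at 3 in WAT, where only Mrps21 and Mrpl20 were higher.

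Mrpl12 encodes the stalk protein of the large subunit, which receives the translation factors (chromosome 11, 120484613 to 120489065, plus strand). It lay at 8.82, 11.2 and 24.4 FPKM in LPS (lowest, median, highest) and at 37.7, 36.1, 43.2 and 57.7 FPKM in WAT 1 to WAT 4, with no overlap. The highest tumour was LPS 2, and the other 7 were at most 13.1 FPKM. The log2 difference was -1.76 ± 0.23 (limma adjusted p = 3.20e-05). The other members of the stalk and its base differed less. Mrpl11, which sits at the stalk base, averaged 4.40 ± 0.775 FPKM in LPS and 9.10 ± 0.869 FPKM in WAT (log2 difference -0.91, limma adjusted p = 8.42e-05). Mrpl10, which anchors the MRPL12 copies, averaged 26.1 ± 6.71 FPKM in LPS and 35.4 ± 1.47 FPKM in WAT and passed narrowly (limma adjusted p = 0.0465). It was named after its values were seen.

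The most abundant other called members of the large subunit ranked among the first 10 of the 70 by mean level in both groups. Mrpl20, of bacterial descent, averaged 46.1 ± 6.24 FPKM in LPS and 92.3 ± 15.1 FPKM in WAT (SD, n = 8 and n = 4). Mrpl51, specific to mitochondria, averaged 33.1 ± 5.36 FPKM in LPS and 77.0 ± 16.4 FPKM in WAT. Mrpl30 averaged 28.1 ± 7.88 FPKM in LPS and 67.7 ± 8.25 FPKM in WAT. All 3 were called (limma adjusted p = 4.70e-05, 3.25e-05 and 0.00012) with no overlap between the groups.

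Mrpl52, a protein of the large subunit that occurs only in mitochondria, went the other way (chromosome 14, 54426909 to 54429756, plus strand). It measured 79.8, 83.7, 99.2, 110, 74.4, 89.0, 94.3 and 73.7 FPKM in LPS 1 to LPS 8 and 58.6, 72.8, 67.4 and 68.9 FPKM in WAT 1 to WAT 4. Every tumour lay above every WAT library, though LPS 8 and LPS 5 exceeded WAT 2 only slightly. The means were 88.0 ± 12.6 FPKM in LPS and 66.9 ± 6.03 FPKM in WAT (SD, 8 and 4 libraries). Their log2 difference was 0.38 ± 0.12 (SE), with a limma adjusted p of 0.0239. By mean level it was the first of the 70 in LPS and the seventh in WAT. The call was lost without WAT 1, WAT 3 or WAT 4 (limma adjusted p = 0.0963, 0.0595 and 0.0519), and without WAT 1 and WAT 4 together (limma adjusted p = 0.228). Over all alternatives the adjusted p ran from 0.00201 to 0.228, with the difference positive in each of the 25.

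Of the 8 members without a call, 6 carry a large subunit symbol (Mrpl13, Mrpl22, Mrpl23, Mrpl24, Mrpl27 and Mrpl36) and 2 a small subunit symbol (Mrps23 and Mrps26). The 6 large subunit proteins all have bacterial counterparts, and both small subunit proteins are specific to mitochondria. Mrpl13 measured 24.5, 27.1 and 42.6 FPKM in LPS (lowest, median, highest), against 33.8, 34.2, 34.8 and 35.9 FPKM in WAT 1 to WAT 4. LPS 2 was above all WAT libraries and the other 7 tumours, at most 32.4 FPKM, were below them. Its limma adjusted p was 0.152 with all libraries and 0.0187 without LPS 2. Mrpl24 averaged 40.0 ± 7.89 FPKM in LPS and 50.1 ± 0.494 FPKM in WAT (limma adjusted p = 0.0825, and 0.0472 without LPS 1). Mrpl36 averaged 24.9 ± 4.15 FPKM in LPS and 31.2 ± 1.91 FPKM in WAT (limma adjusted p = 0.0514). It was called lower without LPS 1, LPS 3 or LPS 8 (limma adjusted p = 0.0322, 0.0491 and 0.0268). Mrpl27 averaged 23.9 ± 4.18 FPKM in LPS and 29.5 ± 3.01 FPKM in WAT (limma adjusted p = 0.103). All 8 had a negative log2 difference, from -0.49 for Mrpl23 to -0.25 for Mrpl13.

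**Figure D2:**
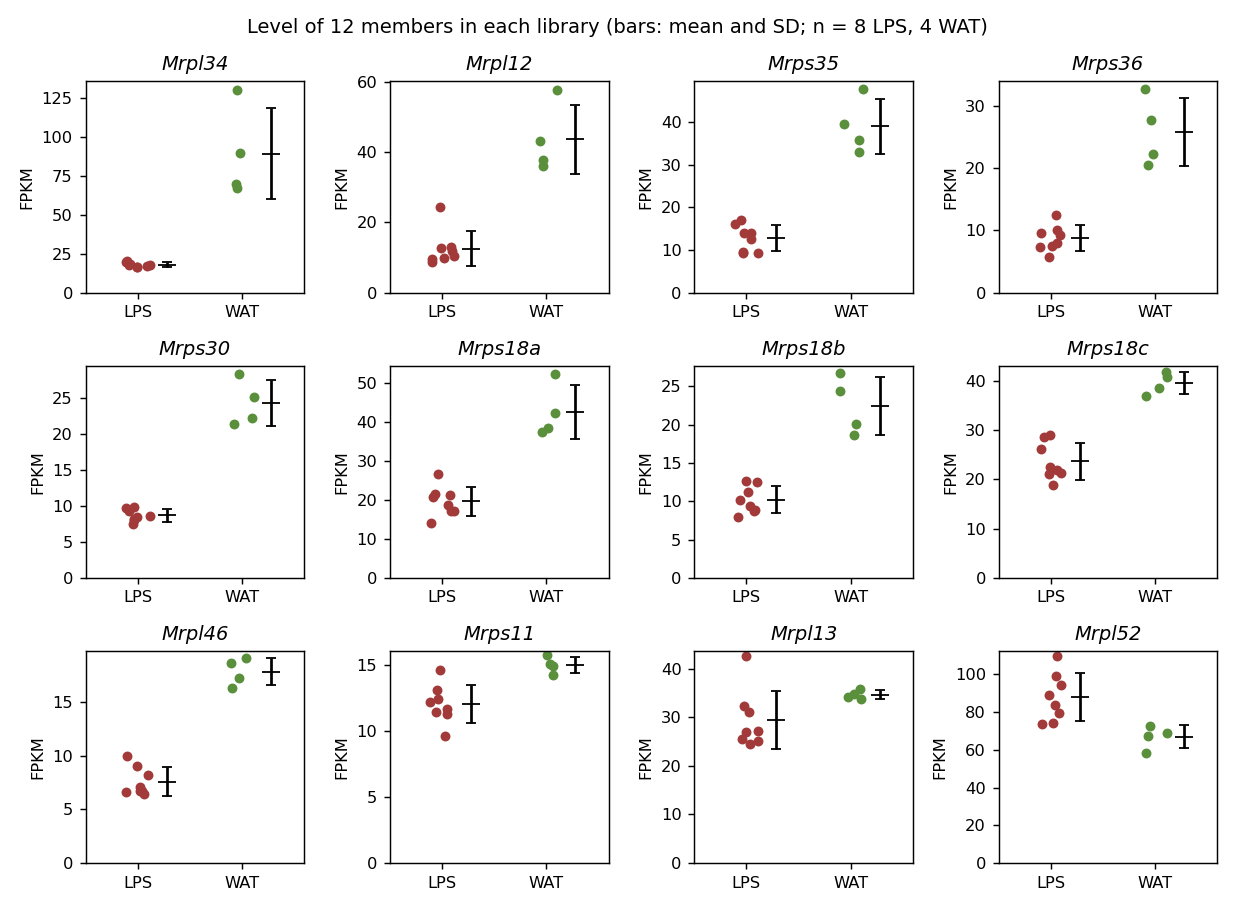
FPKM of 12 members in each library (vertical axis from 0), LPS left and WAT right in each panel, with mean and SD beside the points (n = 8 LPS and 4 WAT). Mrpl34, Mrpl12 and Mrps30 show groups far apart, LPS 2 is the single high tumour of Mrpl12 and Mrpl13, and Mrpl52 is higher in LPS.

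Of the 26 members with a small subunit symbol, 24 were lower and none higher, beside 27% of all tested rows called lower. Mrps35, a protein specific to mitochondria, had the lowest value among them (chromosome 6, 147042764 to 147073991, plus strand). It lay at 9.35, 13.2 and 17.0 FPKM in LPS (lowest, median, highest), against 32.9, 35.7, 39.6 and 47.7 FPKM in WAT 1 to WAT 4, a log2 difference of -1.56 ± 0.18 (limma adjusted p = 1.07e-05). LPS 2 and LPS 8 were the highest tumours and lay well below the lowest WAT library. Mrps12, the counterpart of the bacterial protein that guards accuracy at the decoding centre, averaged 19.4 ± 3.62 FPKM in LPS and 39.6 ± 4.35 FPKM in WAT (limma adjusted p = 5.52e-05). The most abundant small subunit members were Mrps21, at 53.2 ± 10.1 FPKM in LPS and 93.0 ± 10.1 FPKM in WAT, and Mrps16, at 46.6 ± 8.36 FPKM in LPS and 88.1 ± 8.31 FPKM in WAT. Both were lower without overlap (limma adjusted p = 0.000583 and 0.000112). Mrps17 differed least among the 3 abundant ones, with 28.8 ± 3.46 FPKM in LPS and 39.0 ± 3.89 FPKM in WAT (limma adjusted p = 0.00709). The call of Mrps17 was lost without WAT 1 and WAT 4 together (limma adjusted p = 0.165).

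For 3 genes the symbol does not match the place of the protein. MRPS30 and MRPS18A are built into the large subunit in structures of the mammalian mitochondrial ribosome, and MRPS36 belongs to the 2-oxoglutarate dehydrogenase complex of the citric acid cycle. Mrps36 lay at 5.74, 8.59 and 12.5 FPKM in LPS (lowest, median, highest), against 22.3, 20.6, 27.8 and 32.7 FPKM in WAT 1 to WAT 4 (log2 difference -1.47, limma adjusted p = 2.10e-05). Mrps30 (chromosome 13, 118378381 to 118387252, minus strand) lay at 7.43, 8.53 and 9.82 FPKM in LPS and at 22.2, 21.5, 25.1 and 28.4 FPKM in WAT 1 to WAT 4. The tumours were tight and far below WAT, with a log2 difference of -1.38 ± 0.11 (limma adjusted p = 3.37e-07).

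The order of the subunits depended on these 3 assignments. By symbol, the median log2 difference was -0.82 over 44 large subunit genes (37 lower, 1 higher) and -0.96 over 26 small subunit genes. By place in the ribosome, it was -0.84 over 46 large subunit genes (39 lower, 1 higher) and -0.81 over 23 small subunit genes (21 lower). The ratio of summed large to summed small subunit FPKM was 1.93 ± 0.0875 in LPS (SD, n = 8; 1.84 to 2.11) and 1.79 ± 0.0664 in WAT (SD, n = 4; 1.71 to 1.87). Placed by structure, it ran from 2.04 to 2.39 in LPS and from 2.00 to 2.22 in WAT, and the ranges overlapped widely. LPS 7 had the highest ratio by either assignment, 2.11 and 2.39. These sums are described without a test.

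**Figure D3:**
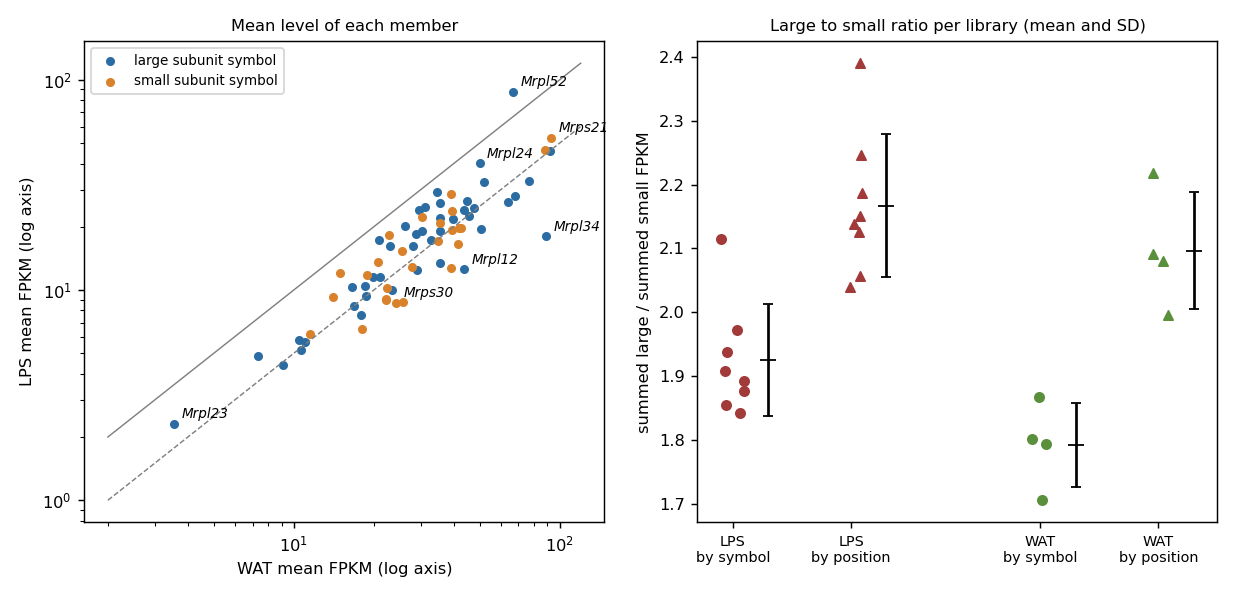
Left: mean FPKM of each of the 70 members in LPS (vertical, log axis) against WAT (horizontal, log axis), with a solid line at equal levels and a dashed line at 0.5 times the WAT level. Right: ratio of summed large to summed small subunit FPKM per library with mean and SD, LPS before WAT, with subunits by symbol (circles) or by place in the ribosome (triangles); LPS averages 1.93 and WAT 1.79 by symbol, and the groups overlap widely by place.

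The Mrps18 genes encode 3 paralogues of 1 bacterial protein. All 3 were lower in LPS without overlap. Mrps18a averaged 19.7 ± 3.75 FPKM in LPS and 42.7 ± 6.88 FPKM in WAT, a log2 difference of -1.09 ± 0.15 (SE, limma adjusted p = 6.66e-05). Mrps18b averaged 10.2 ± 1.78 FPKM in LPS and 22.5 ± 3.75 FPKM in WAT, a log2 difference of -1.07 ± 0.14 (limma adjusted p = 4.61e-05). Mrps18c averaged 23.7 ± 3.77 FPKM in LPS and 39.6 ± 2.25 FPKM in WAT, a log2 difference of -0.73 ± 0.12 (limma adjusted p = 0.000325). Whether the paralogues differ from each other in response was not tested.

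The medians by descent lay close together. The 45 genes with bacterial counterparts had a median log2 difference of -0.84 (39 lower, none higher) and the 24 genes specific to mitochondria one of -0.81 (21 lower, 1 higher). This grouping was added after the values were seen. Within the small subunit by place, 15 of 15 conserved genes and 6 of 8 mitochondria-specific genes were lower (medians -0.92 and -0.70). Within the large subunit, 24 of 30 conserved genes and 15 of 16 mitochondria-specific genes were lower (medians -0.84 and -0.87). The share of all tested rows called lower was 27%.

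The 6 joined rows cannot part the member from its neighbour. A single name does not ensure that a row covers the member alone. Of the 70 single-name rows, 27 had the same ends as the GENCODE M21 gene. The row of Mrpl2 spans 46442448 to 46831413 on chromosome 17, against 46646229 to 46650139 in GENCODE M21. All 6 joined rows were lower in LPS, with a median log2 difference of -0.62, beside 27% of all tested rows called lower. The row of Mrps6 and Slc5a3 had the lowest value, at 15.0 ± 3.49 FPKM in LPS and 58.8 ± 11.0 FPKM in WAT. The row of Mrpl33 and Bre was the most abundant, at 83.9 ± 8.04 FPKM in LPS and 117 ± 9.39 FPKM in WAT. The others joined Mrps24 with Urgcp, Mrps34 with Nme3, Mrpl53 with Ccdc142 and Mrpl48 with D630004N19Rik. A further 7 genes encode mitochondrial ribosomal proteins under other names, and 6 of them were lower, beside the same 27% of all tested rows. Dap3, a GTP-binding protein of the small subunit, averaged 28.2 ± 5.24 FPKM in LPS and 44.9 ± 0.521 FPKM in WAT (limma adjusted p = 0.0011). Ict1, a peptidyl-tRNA hydrolase built into the large subunit, was the exception, with 30.6 ± 7.67 FPKM in LPS and 36.6 ± 2.75 FPKM in WAT (limma adjusted p = 0.209).

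The members varied more among the tumours than among the WAT libraries, with a median coefficient of variation of 17.7% in LPS and 11.4% in WAT. Over all tested rows it was 30.0% and 14.1%. Those rows were not matched to the members by level, so low spread cannot be called a trait of the members. By library, LPS 2 was the highest tumour for 29 of the 70 genes and LPS 8 for 23, while LPS 6, LPS 5 and LPS 7 were the lowest for 18, 15 and 14. Summed over the 70 genes, LPS 2 held 1546 FPKM and LPS 7 held 1179 FPKM, with a mean of 1319 ± 132 FPKM in LPS (SD, n = 8) and 2393 ± 231 FPKM in WAT (SD, n = 4). WAT 4 was the highest WAT library for 51 of the 70 genes, at 2717 FPKM, and WAT 2 was the lowest, at 2208 FPKM. In WAT 4 muscle markers summed to 959 FPKM and brown adipocyte markers to 1752 FPKM. WAT 1 had a higher muscle sum, 1061 FPKM, with 2248 FPKM in the members. Among the tumours, the muscle sum was highest in LPS 8, at 320 FPKM, and lowest in LPS 2, at 0.320 FPKM. Brown markers were highest in WAT 3, at 2127 FPKM, and among the tumours in LPS 8, at 16.3 FPKM. The part of cells that express the muscle or brown adipocyte markers in the member levels was not tested.

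**Figure D4:**
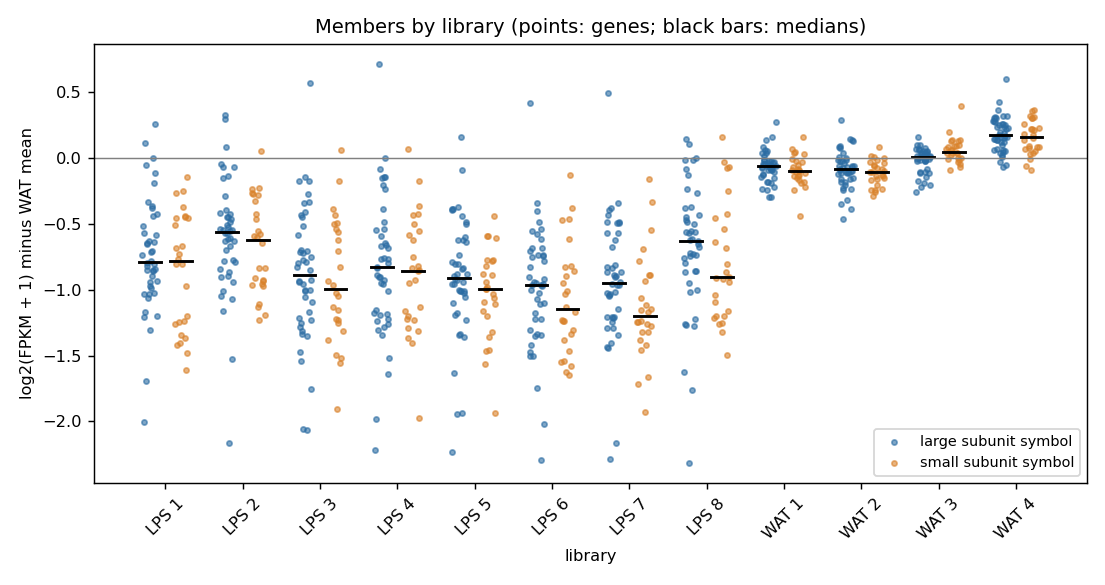
Log2(FPKM + 1) of each of the 70 members minus its WAT mean (vertical axis) in each library (horizontal axis), large subunit symbols left and small subunit symbols right in each library, black bars at medians. Medians over both lie between -1.03 (LPS 7) and -0.59 (LPS 2) in the tumours and between -0.10 (WAT 2) and 0.17 (WAT 4) in WAT.

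Part of the low level of LPS 5 was shared by all its rows. Its members had a median of -0.94 against the WAT mean while its tested rows as a whole had a median of -0.31. The gap between members and all rows was -0.63 in LPS 5, -0.53 in LPS 2 and -0.66 in LPS 8, and between -0.98 and -0.79 in the other 5 tumours. Without LPS 5, 59 members were lower and 1 higher.

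No member was called for age among the tumours. In limma fits of a slope per month over the 8 LPS libraries, 0 of the 70 members passed an adjusted p of 0.05, as did 0% of the 13280 rows tested. At an unadjusted p below 0.05 there was 1 member, Mrpl18 (slope -0.17 ± 0.07 per month on the log2 scale, SE, limma adjusted p = 1.00), or 1.43% of members, beside 1.72% of rows. With ages of 9 to 12 months the span was short.

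Many other genes of mitochondrial translation were lower, and no member of the lists of translation factors, assembly factors, tRNA synthetases or factors of the mitochondrial genome was called higher. Of 15 tested mitochondrial translation factors (of 16 listed), 12 were lower (median log2 difference -0.63). For this and the next lists, the share of all tested rows called lower was 27%. Gfm1, the elongation factor that moves the ribosome along, averaged 15.1 ± 1.12 FPKM in LPS and 45.5 ± 4.68 FPKM in WAT (limma adjusted p = 4.33e-08). Tufm, which delivers tRNAs, averaged 6.69 ± 1.09 FPKM in LPS and 21.3 ± 2.89 FPKM in WAT. Oxa1l, which inserts the new proteins into the inner membrane, lay at 7.69 to 12.9 FPKM in LPS and 21.7 to 32.4 FPKM in WAT. Of 22 tested genes for ribosome assembly and rRNA modification (of 29 listed), 13 were lower (median -0.61). Mtg1, a GTPase of large subunit assembly, had the lowest value, with 3.43 ± 0.622 FPKM in LPS and 12.0 ± 0.887 FPKM in WAT. Of 19 tested mitochondrial tRNA synthetase and amidotransferase genes (of 20 listed), 13 were lower (median -0.69). Genes for transcription and upkeep of the mitochondrial genome had 7 of 11 tested lower (15 listed, median -0.48). Tfam, which packs mitochondrial DNA, was not called, at 12.9 ± 2.11 FPKM in LPS and 14.2 ± 2.69 FPKM in WAT.

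**Figure D5:**
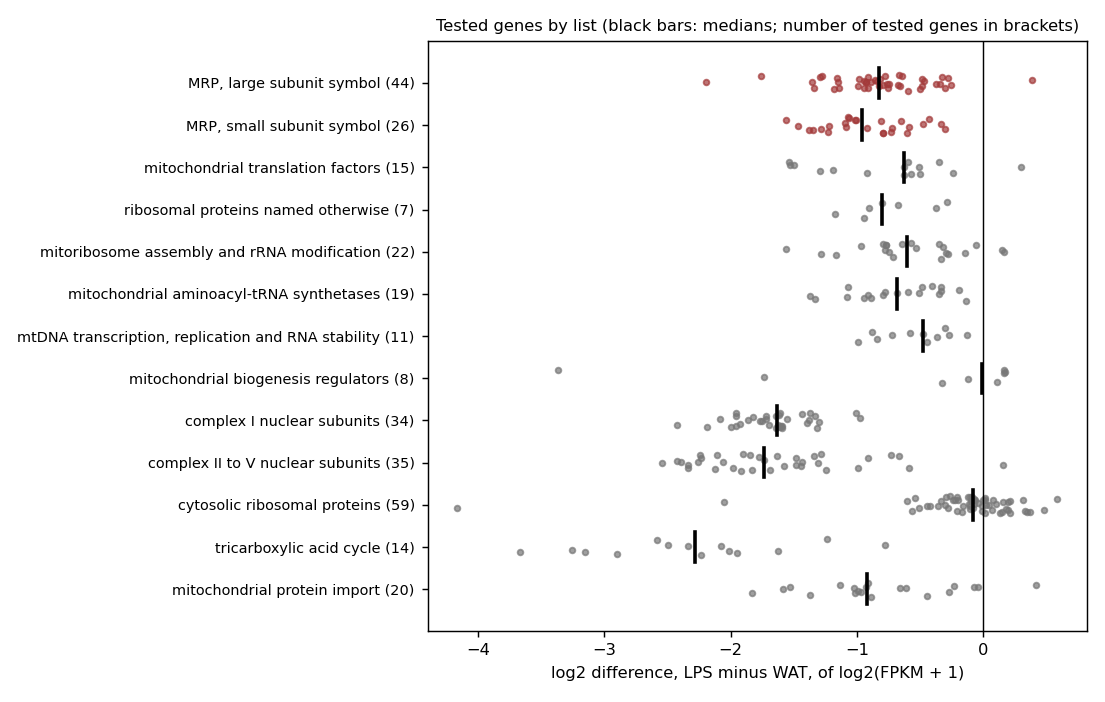
Log2 difference between LPS and WAT (horizontal axis, LPS minus WAT of log2(FPKM + 1)) of each tested gene in the members (red, by symbol) and in the comparison lists (grey), with medians as black bars and the number of tested genes in brackets. Medians are -0.82 and -0.96 for the members, -1.63 and -1.73 for the respiratory chain, -2.29 for the citric acid cycle and -0.09 for cytosolic ribosomal proteins.

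Side by side with other protein complexes, the members stood between the respiratory chain and the cytosolic ribosome. Complex I had 34 of 34 tested nuclear subunits lower with a median log2 difference of -1.63, complexes II to V 34 of 35 with -1.73, and the citric acid cycle 14 of 14 with -2.29. Mitochondrial protein import had 14 of 20 lower with -0.92, beside 27% of all tested rows. Of 59 tested cytosolic ribosomal proteins (of 79 listed), 2 were lower, Rpl29 and Rpsa, and none higher, with a median of -0.09. Rpl29 scattered from 0 to 54.5 FPKM in LPS, against 43.1 to 57.4 FPKM in WAT. Rps3a1, which was not called, ran from 2.32 to 176 FPKM in LPS and from 227 to 259 FPKM in WAT. Mean levels of the cytosolic list in LPS reached from 0.170 FPKM (Rps12, not tested) to 828 FPKM (Rpl41). How near-identical copies were counted is not stated, so the values of this list are uncertain. No test was made of the differences between these lists. The row that holds the mitochondrial ribosomal RNAs, joined with mt-Nd1, mt-Nd2 and tRNAs, lay at 7566 to 12710 FPKM in LPS and 34358 to 72693 FPKM in WAT, and its level depends on the rRNA depletion step.

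Genes known to drive mitochondrial biogenesis divided, with 3 of 8 tested lower, beside 27% of all tested rows. Ppargc1a, the coactivator that raises mitochondrial gene expression in brown fat, was at most 0.0278 FPKM in LPS and 7.55 to 11.9 FPKM in WAT (log2 difference -3.37, limma adjusted p = 1.97e-10). Ppargc1b averaged 5.87 ± 2.68 FPKM in LPS and 20.6 ± 3.66 FPKM in WAT (limma adjusted p = 0.000192). Gabpa, an ETS factor that binds many promoters of mitochondrial genes, averaged 18.1 ± 2.21 FPKM in LPS and 23.0 ± 3.49 FPKM in WAT (limma adjusted p = 0.0406). The other 5 tested genes were not called, and 8 of 10 listed genes were tested. Among them Nrf1 averaged 16.4 ± 3.46 FPKM in LPS and 15.0 ± 1.67 FPKM in WAT, and Yy1 30.7 ± 4.59 FPKM in LPS and 27.0 ± 2.00 FPKM in WAT.

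Promoter windows were searched on both strands for GCGCATGCG (the core of the NRF1 site), CCGGAAG (the ETS core bound by GABPA) and AAGATGGCG (the core of the YY1 motif), and a base could count for more than 1 motif. RefSeq windows matched 62 of the 70 genes, 65 windows in all. The ETS core was in 21 windows (32.3%), against 8.86% of all 32851 windows and 11.6% of the 21263 windows of protein-coding genes. The NRF1 core was in 7 windows (10.8%), those of Mrpl9, Mrpl10, Mrpl17, Mrpl22, Mrpl32, Mrpl39 and Mrps18b. It was in 1.75% of all windows and 2.35% of those of protein-coding genes. The YY1 core was also in 7 windows (10.8%), those of Mrpl35, Mrpl36, Mrpl37, Mrpl42, Mrps11, Mrps18a and Mrps27. It was in 1.40% of all windows and 1.83% of those of protein-coding genes. Of each of these 7, 6 were called lower, all but Mrpl22 and Mrpl36. Of the 55 genes without the NRF1 core 48 were lower, and of the 55 without the YY1 core also 48. Of the 21 genes with the ETS core 16 were lower (median log2 difference -0.81), and of the 41 without it 38 were lower (median -0.86). In the windows printed above, Mrpl34 holds the ETS core at position -37, Mrps12 at 1, and Mrpl52 at -47 and 2 on the opposite strand. Positions count from the RefSeq start. The GENCODE M21 start of Mrpl34, 71464959, lies downstream of its RefSeq start. A match of letters is a description and not a bound site.

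Some members lie head to head with another gene, a comparison chosen after the members' values were seen. In GENCODE M21, 16 of the 70 genes have a protein-coding gene that starts on the opposite strand within 1000 bases upstream, and for 12 pairs that gene was tested in a single-name row. All 12 members were lower (median log2 difference -0.97). Of their partners 3 were lower, none was higher and 9 were not called, with a median of 0.10. The share of partners called lower was near that of all tested rows, of which 27% were lower and 18.9% higher. Mrpl51 starts 100 bases from Ncapd2, a condensin subunit of dividing cells, which averaged 14.9 FPKM in LPS and 9.52 FPKM in WAT (limma adjusted p = 0.162). Mrpl32 starts 75 bases from Psma2, a proteasome subunit, at 78.9 FPKM in LPS and 78.3 FPKM in WAT (limma adjusted p = 0.975). Mrpl49 starts 59 bases from Fau, which encodes a cytosolic ribosomal protein, at 10.3 FPKM in LPS and 8.54 FPKM in WAT (limma adjusted p = 0.426). The partners that were lower were Sars2, Cyb5rl and Pnpla7. Sars2, the mitochondrial seryl-tRNA synthetase 172 bases from Mrps12, averaged 3.39 FPKM in LPS and 8.20 FPKM in WAT (log2 difference -1.08, limma adjusted p = 6.77e-05). Differences within pairs were not tested.

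Mrpl46 and Mrps11 are members that overlap head to head on chromosome 7, and their levels parted. As deposited, both rows carry the same span, 78775236 to 78792989. Mrpl46 measured 8.20, 10.0, 6.74, 9.03, 6.41, 6.63, 6.68 and 7.08 FPKM in LPS 1 to LPS 8 and 17.3, 16.4, 19.1 and 18.7 FPKM in WAT 1 to WAT 4, with no overlap (log2 difference -1.14 ± 0.13, limma adjusted p = 8.15e-06). Mrps11 measured 12.4, 12.1, 13.1, 11.4, 9.57, 11.3, 11.6 and 14.6 FPKM in LPS 1 to LPS 8 and 14.9, 15.1, 15.7 and 14.2 FPKM in WAT 1 to WAT 4. Only LPS 8 reached into the WAT range, and the difference passed narrowly (log2 difference -0.30 ± 0.11, limma adjusted p = 0.0322). The ratio of Mrpl46 to Mrps11 was 0.486 to 0.825 in the tumours and 1.09 to 1.31 in WAT. The call of Mrps11 was lost without LPS 4 or LPS 6 (limma adjusted p = 0.0512 and 0.0533) and without WAT 1, WAT 2, WAT 3 or WAT 4 (0.0742, 0.0768, 0.0976 and 0.0579), and over all alternatives its adjusted p was at most 0.133. The pair was picked after its values were seen, and reads of the overlap cannot be assigned unless strand was used in counting, which the sources used here do not state.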

How the data were processed

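Per the labels, frozen tissue gave total RNA, from which ribosomal RNA was removed before stranded library preparation. The authors deposited 1 FPKM value for each locus in each library. The submitters' processing notes name Cuffdiff 2.2.1, Cufflinks 2.2.1, TopHat2 2.1.0, Bowtie2 and Trimmomatic without their roles, and GRCm38 as the build. The table carries no fragment totals, so depth is unknown and counting error is not given. The sources used here do not state how strand or near-identical copies were treated in counting.

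LPS and WAT were compared by limma 3.58.1 (R 4.3.3) on a log2(FPKM + 1) scale without covariates. Variances were moderated with a trend and robustly, tests were two-sided, and p-values were Benjamini-Hochberg adjusted over the 14821 rows that reached 1 FPKM in 4 or more of 12 libraries. The scale understates changes of low genes. The fit was tested on simulated data with the same spread in both groups. That test does not cover the unequal spread of these libraries (median coefficient of variation 30.0% in LPS and 14.1% in WAT over all tested rows). The labels call the libraries biological replicates but do not say that each is a separate animal, so p-values measure the spread between these libraries. Members, gene lists and tests were chosen with earlier results of these data known. Joined rows were left out of counts. Named members were the 5 lowest and the highest called, the 3 most abundant others of each subunit, the 4 most abundant not called and 8 set genes. Gene positions are from GENCODE M21 and promoters from RefSeq. Only 27 of the 70 single-name rows have the same ends as deposited, so a printed position can differ from the measured locus. The closing section gives the alternatives.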

Additional observations from a re-analysis of the deposited data

Results flagged for a closer look

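Among 50 checks of single libraries within a group (named members, their summed level and the subunit ratio), 3 found a library far from the others, and chance alone gives about 1 in 20. Mrpl12 was at 24.4 FPKM in LPS 2, while the other 7 tumours lay at 8.82 to 13.1 FPKM. Mrpl13 was at 42.6 FPKM in LPS 2, against 24.5 to 32.4 FPKM in the others. Mrpl51 was at 45.1 FPKM in LPS 8, against 28.9 to 36.0 FPKM in the others. LPS 2 and LPS 8 were also the tumours with the highest summed level of all members.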

How the results depend on the processing

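The number of members lower in LPS was 61 and ran from 46 (without WAT 1 and WAT 4 together, chosen after seeing the data) to 67 (array quality weights); leaving out 1 library gave 57 to 63 lower and 0 to 1 higher. The 1 higher member, Mrpl52, lost its call when WAT 1, WAT 3, WAT 4, or WAT 1 and WAT 4 together were left out (0 higher in each). Median log2 differences without 1 library ran from -0.88 to -0.81 over all members, -0.86 to -0.78 over large and -1.03 to -0.90 over small subunit symbols. Age calls were 0 under every alternative. Quantile normalization moved the median of all rows to 0.10 and the share of calls that were lower from 58.8% to 45.2%, and 59 members were then lower. With no filter 67.1% of all calls were lower, and 58 members. Of 575 repeats over 23 members, 551 kept their side of the threshold, 14 lost the call, 10 gained it and 0 changed sign. A block on replicate numbers could use only LPS 1 to 4 and WAT 1 to 4. These 8 libraries gave 58 members lower without the block (chosen after seeing the data) and 53 with it, and 1 higher in both. Mrps17 and Mrps11 were called in these libraries without the block (adjusted p = 0.0246 and 0.0343) and not with it (0.0573 and 0.0918). Same-numbered libraries deviated together with correlations of -0.000261 to 0.0802, so the numbers are not shown to pair them, and not every library matched its own number best.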

Other observations

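Pseudogene rows of members had low levels. Mrpl23-ps1 lay at 1.46 to 3.65 FPKM in LPS and 1.78 to 3.65 FPKM in WAT, close to the level of Mrpl23 itself, which was 0.928 to 3.87 FPKM in LPS and 2.76 to 4.49 FPKM in WAT. The value of Mrpl23 is uncertain, since the division of reads between the copies is not known. The 2 pseudogene rows of Mrps36 were at most 0.625 FPKM in LPS and 0.616 FPKM in WAT. Mrpl48-ps lay at 0.102 to 3.49 FPKM in LPS and 2.44 to 4.95 FPKM in WAT. Its log2 difference of -0.97 was not called (limma adjusted p = 0.0508).

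Among tRNA synthetases, Lars2, which charges mitochondrial leucine tRNA, ran from 4.67 to 407 FPKM in LPS and from 11.0 to 433 FPKM in WAT and was not called (limma adjusted p = 0.380). Its coefficient of variation in LPS was the highest of that list.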
